A study of Mus musculus with 4 samples.

Results

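The 10 genes described here, of the 18695 genes in the count matrix, set, copy or remove DNA methylation or supply the enzymes that do so: the dioxygenases *Tet1*, *Tet2* and *Tet3*, the methyltransferases *Dnmt1*, *Dnmt3a* and *Dnmt3b*, the maintenance cofactor *Uhrf1*, the isocitrate dehydrogenases *Idh1* and *Idh2*, and the glycosylase *Tdg*. They were chosen by name, and all 10 have a row in the matrix. RNA was counted by single-cell RNA-seq as unique molecular identifiers (UMIs, each standing for an RNA molecule captured near its 3′ end) in 8969 mouse bone marrow cells of 4 libraries. The *Tet2* KO mice carried Mx1-Cre, in which an interferon-inducible promoter drives Cre, over *Tet2* fl/fl. The WT mice were littermates with the same floxed alleles and no Cre, and all mice received 4 doses of pI:pC at 12.5 ug/g, so treatment and floxed alleles were shared by both genotypes. From each genotype, GMPs (granulocyte-monocyte progenitors, sorted as Lin- cKit+ Sca1- CD34+ CD16/32+) gave 1 library and Lin- progenitors pooled with CD11b+ myeloid cells (the Lin-/CD11b+ fraction) gave another. The library names assign both WT libraries to the same mouse and both *Tet2* KO libraries to a different mouse. Genotype and mouse therefore cannot be told apart, and no difference between genotypes was tested. A table accompanying the study exchanges the cell numbers of the GMP *Tet2* KO and Lin-/CD11b+ WT libraries relative to the deposited cell table. The deposited assignment was used, and the library it calls GMP *Tet2* KO held no plasma-like, B-like or neutrophil-like cells. The question put to these genes is whether the paralogues differed in the cells in which *Tet2* was deleted.

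TET enzymes oxidize 5-methylcytosine to 5-hydroxymethylcytosine and further oxidized bases, using oxygen, iron and 2-oxoglutarate. TDG cuts out the most oxidized bases, and base excision repair then restores an unmethylated cytosine. DNMT3A and DNMT3B place methyl groups on unmethylated DNA, while DNMT1, guided by UHRF1 to hemimethylated sites behind the replication fork, copies existing marks. IDH1 in the cytosol and IDH2 in mitochondria make the 2-oxoglutarate that TET enzymes need. In blood, *TET2*, *DNMT3A*, *IDH1* and *IDH2* are recurrently mutated in clonal hematopoiesis and myeloid leukemia.

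The libraries held 1258 cells (GMP WT), 2719 cells (GMP *Tet2* KO), 1924 cells (Lin-/CD11b+ WT) and 3068 cells (Lin-/CD11b+ *Tet2* KO), with total counts of 22681380 to 42561110 UMIs and medians of 10417 to 18713 UMIs per cell. Between 4 and 8 cell barcodes were shared by any pair of libraries. Cells were placed in classes by how many markers of fixed lists they held at 5000 UMIs, and each class is named after its markers with the suffix -like. Granulocyte-monocyte progenitors leaning to monocytes or to neutrophils are called mono-GMP-like and neutro-GMP-like (mono-biased and neutro-biased GMP in the figures, where the fractions are called sorts). Of the 8969 cells, 8689 cells entered a class. Over the 4 libraries pooled, no class had more markers of another class than of its own among its 10 leading genes, but in the GMP *Tet2* KO library *S100a8* and *S100a9* were among the leading genes of the neutro-GMP-like class. The mono-GMP-like class had 1 of its own markers among its pooled leading genes. It had 0 in Lin-/CD11b+ WT and 1 in Lin-/CD11b+ *Tet2* KO, against 4 and 5 in GMP WT and GMP *Tet2* KO. Of its 9 markers, 5 lay above the library level in each GMP library, 8 in Lin-/CD11b+ WT and 7 in Lin-/CD11b+ *Tet2* KO. The plasmacytoid dendritic (pDC) lineage-like class also had *Dntt*, *Il7r* and *Ly6d*, genes of early lymphoid cells, among its leading genes. As a gauge of free RNA, *S100a8* stood at 202785 CPM (UMIs of a gene for each 1000000 UMIs) in WT neutrophil-like cells and at 117 CPM in HSPC-like cells (hematopoietic stem and progenitor cells) of the same library. Over HSPC-like, mono-GMP-like and pDC lineage-like cells of both Lin-/CD11b+ libraries it ranged from 99.5 to 540.1 CPM, and *Jchain*, at 58755 and 58189 CPM in WT and KO plasma-like cells, ranged from 40.2 to 180.5 CPM. The 540.1 CPM was in KO mono-GMP-like cells. In GMP *Tet2* KO, which held no neutrophil-like cells, mono-GMP-like cells had *S100a8* at 232 CPM. Whether *S100a8* in mono-GMP-like cells was free RNA or their own was not tested. Levels below are UMIs of a gene as CPM of the class, with exact Poisson 95% intervals in parentheses, and shares of cells carry exact binomial 95% intervals. All intervals cover counting error only, not differences between animals. Because UMIs were captured at 3′ ends and genes differ in capture, levels are compared between cells and not between genes.

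*Dnmt1* and *Uhrf1* are shown first with their promoters, because their levels were the most alike of any pair of the 10 genes that could be compared. RefSeq (GRCm38.p6) gave 16 promoters of 300 bases for the 10 genes, from 250 bases before to 50 bases after each start. They were searched on both strands for the E2F-type letters TTTCCCGC, TTTGGCGC, TTTCGCGC and TTTGCCGC, and no matches found overlapped. E2F factors are the transcription factors that switch on replication genes at the start of S phase. Of the 32851 promoters in the table, 744 held such a match (2.26%). Among the 16 promoters of the 10 genes, 2 held a match, and these were 1 of the 3 of *Dnmt1* (chr9:20952574-20952873, minus strand) and 1 of the 2 of *Uhrf1* (chr17:56304063-56304362, plus strand). Both are printed 5′ to 3′ on the strand of the gene, with the matches in capitals.
Dnmt1: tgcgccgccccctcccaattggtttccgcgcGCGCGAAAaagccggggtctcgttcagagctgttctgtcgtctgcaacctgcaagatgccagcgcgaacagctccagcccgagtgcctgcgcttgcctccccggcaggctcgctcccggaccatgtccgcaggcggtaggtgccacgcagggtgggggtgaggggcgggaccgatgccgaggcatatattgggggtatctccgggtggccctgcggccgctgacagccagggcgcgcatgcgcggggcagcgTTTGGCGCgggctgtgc
Uhrf1: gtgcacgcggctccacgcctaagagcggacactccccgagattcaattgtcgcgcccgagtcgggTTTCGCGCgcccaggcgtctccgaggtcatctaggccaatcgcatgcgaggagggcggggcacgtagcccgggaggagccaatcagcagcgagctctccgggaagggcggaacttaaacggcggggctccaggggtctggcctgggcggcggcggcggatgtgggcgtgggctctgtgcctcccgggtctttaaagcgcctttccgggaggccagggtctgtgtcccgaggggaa
The *Dnmt1* window held TTTCGCGC read on the other strand, as GCGCGAAA from base 32, and TTTGGCGC from base 284. The *Uhrf1* window held TTTCGCGC from base 66. A match describes the letters only. Both windows held 33 CpG dinucleotides, against a median of 7 CpG in all promoters of the table, and the *Tet2* promoter (chr3:133544341-133544640) held 57 CpG and no such match.

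In the RefSeq annotation of GRCm38.p6 the Tet genes lie at chr10:62804570-62887469 (*Tet1*), chr3:133463677-133545136 (*Tet2*) and chr6:83362373-83457208 (*Tet3*), all on the minus strand. The methyltransferases lie at chr9:20907206-20959888 (*Dnmt1*, minus), chr12:3801559-3914443 (*Dnmt3a*, plus) and chr2:153649411-153687730 (*Dnmt3b*, plus), with *Uhrf1* at chr17:56303337-56323486 (plus). *Idh1* lies at chr1:65158616-65186479 (minus), *Idh2* at chr7:80094845-80118608 (minus) and *Tdg* at chr10:82629814-82650799 (plus). UMIs were counted per gene, so no exon or UTR can be assigned to them.

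*Tet2*, the targeted gene, opens the levels. Its UMIs were not fewer in the *Tet2* KO libraries: the level was 13.02 (11.6 to 14.6) CPM in GMP WT, 16.99 (15.8 to 18.3) CPM in GMP *Tet2* KO, 13.4 (11.9 to 14.998) CPM in Lin-/CD11b+ WT and 20.7 (19.2 to 22.2) CPM in Lin-/CD11b+ *Tet2* KO. Both KO libraries lay above both WT libraries. The files do not place UMIs along the gene, which spans chr3:133463677-133545136 (GRCm38.p6), and a 3′ UMI need not lie in the deleted part, so this count checks neither the deletion nor the labels. *Gm42567*, an antisense gene over *Tet2*, had 3 to 17 UMIs per library, against 298 to 723 for *Tet2*.

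The same direction was seen class by class. *Tet2* was measured with at least 20 UMIs over both genotypes in 11 class comparisons, and the KO over WT ratio was above 0 on the log2 scale in 10 of these, with a median of 0.54 and a range of -0.26 to 0.75. In monocyte-like cells of the Lin-/CD11b+ fraction the level was 18.3 (14.3 to 22.98) CPM in WT and 28.8 (25.2 to 32.9) CPM in KO, a log2 ratio of 0.66 (0.27 to 1.06). Markers of the monocyte-like class also differed there. From WT to KO, *Vcan* stood at 1.75 and 19.2 CPM, *Clec4a3* at 30.3 and 67.6 CPM and *S100a4* at 1011 and 1464 CPM. Going the other way were *Lgals3* (1814 and 1736 CPM), *Crip1* (5725 and 5252 CPM) and *Ly6c2* (3601 and 3219 CPM). Their part in the *Tet2* values was not tested. In neutro-GMP-like cells the *Tet2* level was 10.7 (8.69 to 13.1) against 15.3 (13.5 to 17.3) CPM in the GMP fraction and 12.5 (9.01 to 16.8) against 18.7 (14.8 to 23.4) CPM in the Lin-/CD11b+ fraction. These cells also differed in a granule gene: *S100a8* stood at 311 CPM in WT and 1181 CPM in KO of the GMP fraction, and at 962 and 5588 CPM in the Lin-/CD11b+ fraction. Its part in the *Tet2* values was not tested. In mono-GMP-like cells of the GMP fraction the ratio was 0.19 and ranged from -0.042 to 0.30 over the alternatives within its class and fraction. The exception was the pDC lineage-like class, with 24.1 (18.05 to 31.5) CPM in WT and 20.1 (14.9 to 26.5) CPM in KO, where the ratio of -0.26 ranged from -0.35 to 0.40 over such alternatives.

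In all, 5 comparisons of *Tet2* lay past 1.5-fold, all higher in KO and all in the Lin-/CD11b+ fraction: mono-GMP-like (0.67 [0.24 to 1.12]), neutro-GMP-like (0.59 [0.03 to 1.16]), monocyte-like (0.66), neutrophil-like (0.75 [-0.40 to 2.000]) and basophil-like cells (0.71 [-0.62 to 2.21]). The neutro-GMP-like difference depended on the cells taken, with a log2 ratio of -0.033 in those with few and 1.30 in those with many cell cycle UMIs, and it was 0.57 under trimmed-mean (TMM) scaling. Under 10 such alternatives each, mono-GMP-like cells stayed past 1.5-fold in 7 (0.21 in cells with few cycle UMIs), monocyte-like cells in 8 (0.45 in thinned cells), and neutro-GMP-like and neutrophil-like cells in 5. The share of all tested genes past 1.5-fold higher was 8.32% in mono-GMP-like, 10.1% in neutro-GMP-like, 8.9% in monocyte-like, 33.8% in neutrophil-like and 13.2% in basophil-like cells. In cells thinned to 5000 UMIs, the share with a *Tet2* UMI was 10.1% (7.39 to 13.4) [unthinned 15.9%] in WT and 13.6% (11.2 to 16.2) [unthinned 25.3%] in KO monocyte-like cells of the Lin-/CD11b+ fraction. It was 4.46% (2.16 to 8.06) [unthinned 18.3%] and 10.1% (7.03 to 13.8) [unthinned 19.5%] in neutro-GMP-like cells of the same fraction. In the GMP fraction the share was 9.002% (6.67 to 11.8) [unthinned 24.3%] and 8.29% (6.81 to 9.97) [unthinned 24.8%] in mono-GMP-like cells. The intervals of WT and KO overlapped in each of these comparisons of shares.

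**Figure D1:**
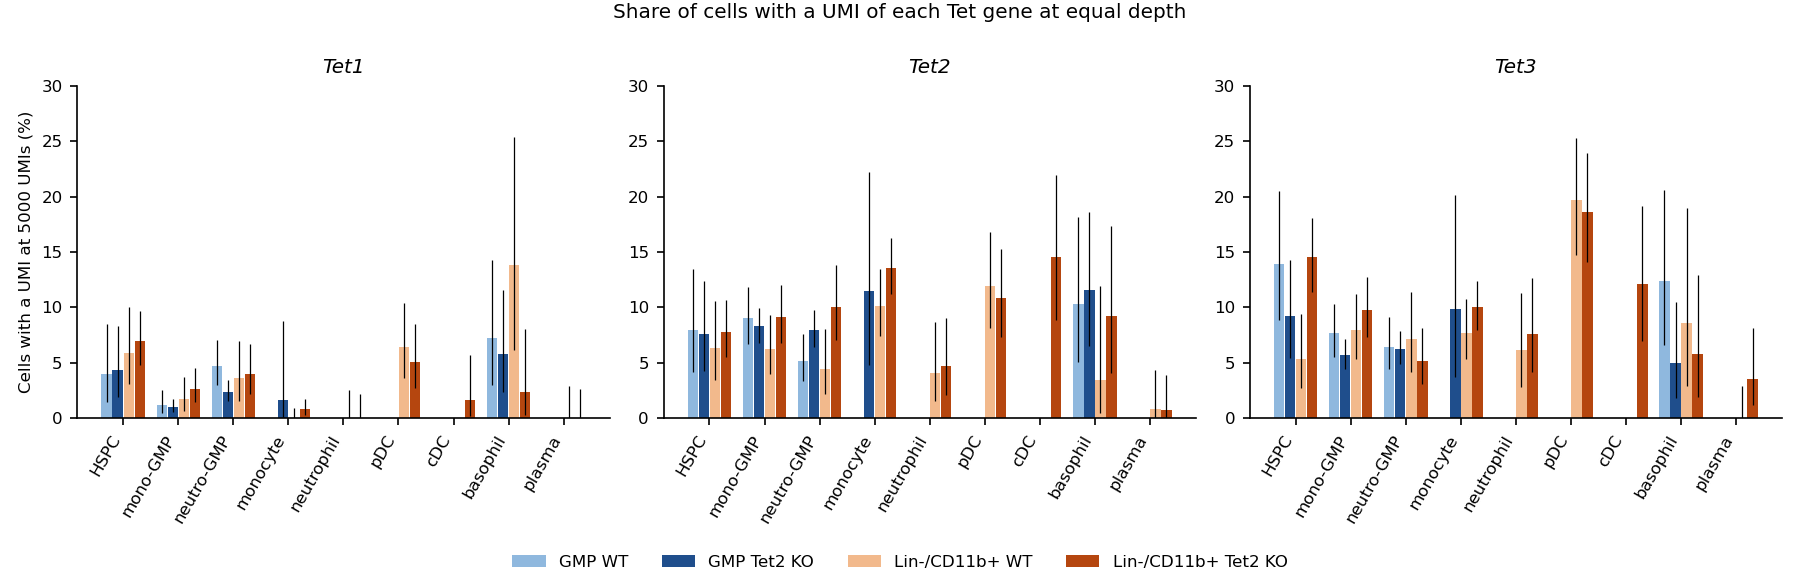
Share of cells (%) with a UMI of *Tet1*, *Tet2* or *Tet3* after each cell was thinned to 5000 UMIs, by cell class (x axis) and library (colour). Bars show the share and black lines the exact binomial 95% interval. Classes with under 50 cells in a library have no bar, while bars at 0 have an interval only. *Tet1* is near 0 in monocyte-like, neutrophil-like and plasma-like cells, and *Tet3* reaches its highest share in pDC lineage-like cells.

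*Tet1* was at or near 0 UMIs in several classes. It was found in HSPC-like cells at 13.2 (9.10 to 18.6) CPM in Lin-/CD11b+ WT and 14.9 (11.6 to 18.9) CPM in Lin-/CD11b+ *Tet2* KO, in pDC lineage-like cells at 11.4 and 12.1 CPM, and in basophil-like cells of the GMP fraction at 15.6 (9.22 to 24.6) CPM in WT and 14.5 (8.71 to 22.6) CPM in KO. Basophil-like cells of the Lin-/CD11b+ fraction lay at 20.4 (9.76 to 37.4) CPM in WT and 7.77 (2.85 to 16.9) CPM in KO, from 10 and 6 UMIs. Monocyte-like cells of the Lin-/CD11b+ fraction held 1 UMI in 415 WT cells and 9 UMIs in 751 KO cells. Plasma-like cells held 0 UMIs in both libraries, which, taking 3 UMIs as the limit, allows up to 1.51 CPM in WT and 1.60 CPM in KO, and neutrophil-like cells held 0 and 1 UMIs. Among the UMIs of the 3 Tet genes summed in Lin-/CD11b+ WT, *Tet1* made up 37.1% in HSPC-like, 11.1% in mono-GMP-like and 0.714% in monocyte-like cells. These fractions depend on how well each gene was captured and are read between classes only.

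Between genotypes, *Tet1* went in no common direction. Of 8 class comparisons with enough UMIs, 4 were above and 4 below 0. In neutro-GMP-like cells of the GMP fraction, 58 UMIs in 465 WT cells and 75 UMIs in 1106 KO cells gave 6.48 (4.92 to 8.38) and 4.42 (3.48 to 5.55) CPM, a log2 ratio of -0.55 (-1.06 to -0.03). The share of those cells with a *Tet1* UMI was 4.73% (2.99 to 7.08) [unthinned 11.2%] in WT and 2.35% (1.54 to 3.43) [unthinned 6.15%] in KO. In the same class of the Lin-/CD11b+ fraction, WT and KO lay at 6.08 and 5.76 CPM, with overlapping intervals. The comparison past 1.5-fold was mono-GMP-like cells of the Lin-/CD11b+ fraction, at 3.42 (1.99 to 5.47) CPM in WT and 5.46 (3.86 to 7.49) CPM in KO, where the background is the 8.32% given above. The ratio turned to -0.025 when each class with a marker minimum needed 1 marker fewer. The mono-GMP-like class has no such minimum and then kept 62.4% of its cells over all libraries.

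*Tet3* was highest in pDC lineage-like cells, at 36.8 (29.2 to 45.8) CPM in WT and 35.8 (28.7 to 44.04) CPM in KO, and in conventional dendritic-like cells of Lin-/CD11b+ *Tet2* KO, at 36.6 (25.8 to 50.5) CPM. In WT of that fraction the next class below, basophil-like, lay at 18.3 (8.38 to 34.8) CPM and overlapped the pDC lineage-like interval, while monocyte-like cells (16.5 [12.8 to 21.03] CPM) and all remaining classes lay below it. The largest difference between genotypes was in HSPC-like cells of the Lin-/CD11b+ fraction: 30 UMIs in 205 WT cells gave 12.01 (8.11 to 17.2) CPM and 120 UMIs in 462 KO cells gave 26.3 (21.8 to 31.4) CPM. The log2 ratio was 1.13 (0.54 to 1.76), and 10.4% of all genes tested in that comparison were 1.5-fold or more higher. At 5000 UMIs the share of these cells with a *Tet3* UMI was 5.37% (2.71 to 9.40) [unthinned 13.2%] in WT and 14.5% (11.4 to 18.05) [unthinned 22.1%] in KO. In HSPC-like cells of the GMP fraction, *Tet3* stood at 19.7 CPM in WT and 20.6 CPM in KO, a log2 ratio of 0.06 (-0.49 to 0.62), so the WT library of the Lin-/CD11b+ fraction was the low one of the 4. When each class with a marker minimum, HSPC-like included, needed 1 marker fewer, the Lin-/CD11b+ ratio was 0.44.

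The HSPC-like cells of the libraries differed in maturity genes. *Elane*, a granule protease of GMPs, stood at 4326 CPM in GMP WT, 5632 CPM in GMP *Tet2* KO, 1334 CPM in Lin-/CD11b+ WT and 764 CPM in Lin-/CD11b+ *Tet2* KO, while the stem cell factor *Hlf* stood at 13.3, 5.58, 39.2 and 49.9 CPM. Both genes thus differed between genotypes within a fraction, and their part in the *Tet3* difference was not tested. The granule gene *Mpo* stood at 4522, 5257, 1771 and 1516 CPM in the same order of libraries. The GMP fraction was sorted as GMPs, so its HSPC-like cells were sorted GMPs with at least 3 of 11 HSPC markers. The class name therefore does not stand for the same cell type in both fractions. Elsewhere in the Lin-/CD11b+ fraction *Tet3* was also higher in KO in mono-GMP-like cells (14.3 [11.1 to 18.01] against 20.8 [17.6 to 24.5] CPM) and monocyte-like cells (16.5 [12.8 to 21.03] against 22.8 [19.6 to 26.5] CPM), though not past 1.5-fold. In the GMP fraction its 4 ratios lay between -0.49 and 0.18.

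Detection of *Tet2* and *Tet3* in the same cell was close to what their separate shares give. In monocyte-like cells of Lin-/CD11b+ *Tet2* KO, both had a UMI at equal depth in 1.73% of cells (0.925 to 2.94), against 1.36% if independent. The most UMIs of a Tet gene in any 1 cell was 3 for *Tet1*, 5 for *Tet2* and 4 for *Tet3*. At this depth a cell without a UMI cannot be read as a cell without the RNA.

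**Figure D2:**
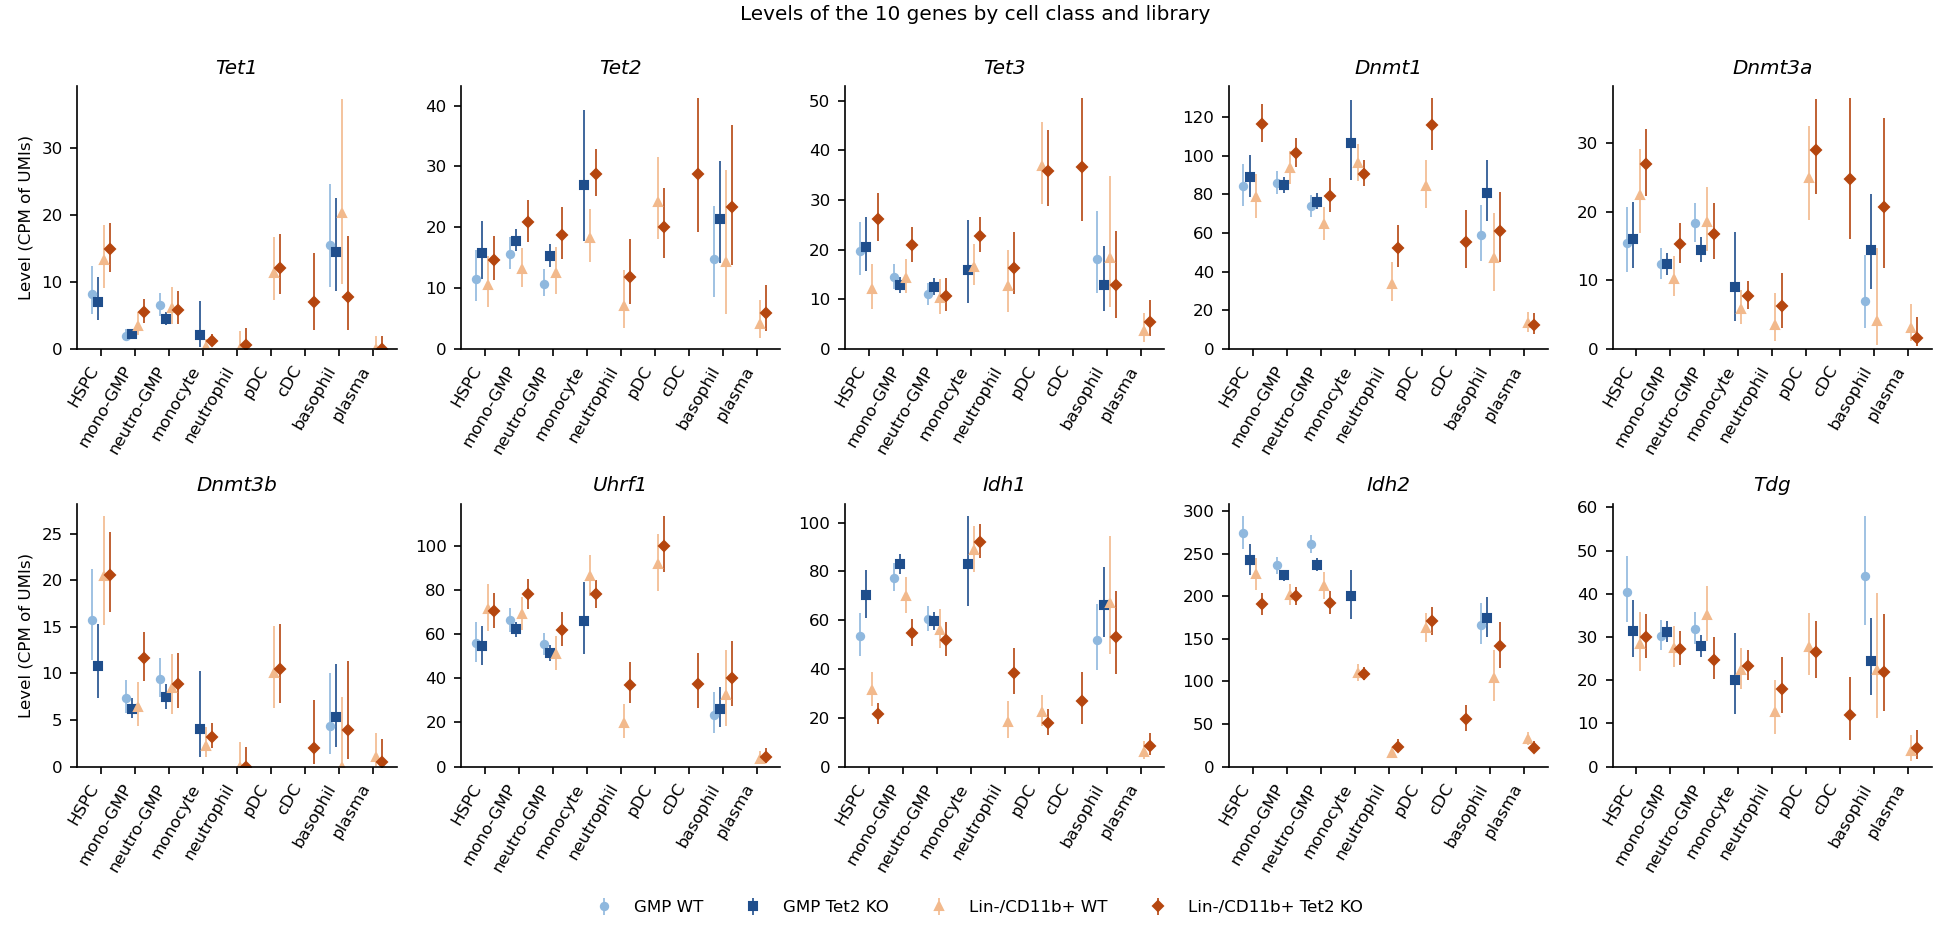
Level (CPM of UMIs, linear axis from 0, own scale per gene) of each of the 10 genes by cell class (x axis) and library (colour and symbol), with exact Poisson 95% intervals. Classes with under 50 cells in a library have no point. *Dnmt1*, *Uhrf1* and *Idh2* are low in plasma-like and neutrophil-like cells, *Dnmt3b* is highest in HSPC-like cells, and *Idh1* is low in pDC lineage-like cells and in HSPC-like cells of the Lin-/CD11b+ fraction.

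Of the methyltransferases, *Dnmt3b* was highest in the least mature class. In the Lin-/CD11b+ fraction it stood at 20.4 (15.2 to 26.9) CPM in WT and 20.6 (16.6 to 25.2) CPM in KO HSPC-like cells, at 6.43 and 11.6 CPM in mono-GMP-like cells, and at 2.25 (1.03 to 4.28) and 3.13 (2.01 to 4.66) CPM in monocyte-like cells. Neutrophil-like cells held 0 UMIs in both libraries, which, at the same limit of 3 UMIs, allows up to 2.11 CPM in WT and 1.69 CPM in KO. *Dnmt3a* was likewise low in monocyte-like cells (5.76 [3.65 to 8.64] and 7.70 [5.86 to 9.93] CPM) but was as high in pDC lineage-like cells (25.001 [18.8 to 32.5] and 28.95 [22.7 to 36.5] CPM) as in HSPC-like cells (22.4 [16.9 to 29.1] and 26.9 [22.4 to 32.1] CPM), with overlapping intervals.

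Between genotypes, *Dnmt3b* was lower in KO in all 3 measured classes of the GMP fraction, with log2 ratios of -0.54, -0.24 and -0.34 in HSPC-like, mono-GMP-like and neutro-GMP-like cells, each with an interval that included 0. Over the whole GMP fraction the levels were 9.09 (7.89 to 10.4) CPM in WT and 7.002 (6.23 to 7.84) CPM in KO, a log2 ratio of -0.38 (-0.64 to -0.11). In the Lin-/CD11b+ fraction all 5 ratios were above 0, and mono-GMP-like cells were past 1.5-fold (6.43 [4.40 to 9.08] against 11.6 [9.24 to 14.5] CPM, log2 ratio 0.85 [0.25 to 1.49]). With classes taken from clusters this ratio was -0.11, so it depends on which cells are counted as mono-GMP-like. Among comparisons with at least 20 UMIs, *Dnmt3a* was past 1.5-fold only in basophil-like cells of the GMP fraction, with 8 UMIs in 97 WT cells and 19 UMIs in 121 KO cells (log2 ratio 1.07 [-0.19 to 2.47]), where 7.45% of genes were past 1.5-fold higher. With fewer UMIs, it had 2 UMIs in 58 WT and 16 UMIs in 87 KO basophil-like cells of the Lin-/CD11b+ fraction (log2 ratio 2.35 [0.26 to 5.51]) and 5 and 11 UMIs in WT and KO neutrophil-like cells (0.82 [-0.83 to 2.69]). In neutro-GMP-like cells of the GMP fraction it stood at 18.3 (15.6 to 21.3) CPM in WT and 14.5 (12.7 to 16.4) CPM in KO. Mono-GMP-like cells of the Lin-/CD11b+ fraction went the other way, at 10.3 and 15.2 CPM, a log2 ratio of 0.57 (0.08 to 1.08). With classes taken from clusters that ratio was 0.09. Over whole fractions the *Dnmt3a* ratio was -0.14 (-0.34 to 0.06) in the GMP and 0.34 (0.13 to 0.55) in the Lin-/CD11b+ fraction.

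*Dnmt1* and *Uhrf1*, the maintenance pair, had their lowest levels in plasma-like cells, where *Dnmt1* stood at 13.1 (8.56 to 19.2) and 12.2 (7.76 to 18.4) CPM and *Uhrf1* at 3.53 (1.42 to 7.27) and 4.26 (1.84 to 8.39) CPM in Lin-/CD11b+ WT and KO. In HSPC-like cells of the same libraries *Dnmt1* stood at 78.5 (67.9 to 90.3) and 117 (107 to 127) CPM and *Uhrf1* at 71.3 (61.2 to 82.6) and 70.4 (62.96 to 78.6) CPM. Plasma-like cells were also the class with least cell cycle RNA: 16 S phase genes, which make and repair DNA, summed to 101 CPM in WT plasma-like cells and 1289 CPM in WT HSPC-like cells. Over the 26 class and library profiles with at least 50 cells, *Dnmt1* and *Uhrf1* correlated at r = 0.95 on log2(CPM + 1), the highest of all pairs of the 9 genes that could be compared. The profiles share libraries and depth, and this r is a description.

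The pair was next split within each class and library by cell cycle UMIs. With the S phase and G2/M lists joined and divided at 12 UMIs, as planned, *Dnmt1* was higher in cells with more cycle UMIs in 18 of 19 profiles, with a median log2 ratio of 0.38, and *Uhrf1* in 13 of 19, with a median of 0.05. The lists were then used apart, a split chosen after the joint result was seen. Cells with 6 or more UMIs of the 16 S phase genes at 5000 UMIs were set against cells with fewer (4916 and 4053 cells in all, with 744 cells at 6 UMIs and 752 cells at 5 UMIs, on either side of the divide). *Uhrf1* was higher in the cells with more S phase UMIs in 17 of 17 profiles, with a median log2 ratio of 1.27 and a range of 0.73 to 2.06. *Dnmt1* was higher in 17 of 17 profiles too, by less, with a median of 0.58 and a range of 0.35 to 0.90. In HSPC-like cells of Lin-/CD11b+ *Tet2* KO, *Uhrf1* stood at 107 CPM in cells with more and 33.7 CPM in cells with fewer S phase UMIs, and *Dnmt1* at 148 and 85.2 CPM. The counting interval of the ratio lay above 0 in 16 of the 17 profiles for *Uhrf1* and in all 17 for *Dnmt1*.

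A split by 18 G2 and M phase genes, at 4 UMIs, parted the pair. *Uhrf1* was lower in the cells with more G2/M UMIs in 15 of 19 profiles, with a median log2 ratio of -0.38, and its interval lay below 0 in 10 of them and above 0 in 2. *Dnmt1* was higher in 18 of 19 profiles, with a median of 0.20, and its interval lay above 0 in 2 of the 19. In the largest profile, mono-GMP-like cells of GMP *Tet2* KO, *Uhrf1* stood at 50.7 CPM in cells with more and 83.2 CPM in cells with fewer G2/M UMIs, a log2 ratio of -0.71 (-0.88 to -0.55), while *Dnmt1* stood at 87.5 and 79.7 CPM (0.14 [-0.01 to 0.28]). Of the other 8 genes, *Idh2* was higher with more S phase UMIs in 16 of 17 profiles by a median of 0.11, and *Idh1* was lower in 14 of 17 by a median of -0.36. *Tdg* was higher with more G2/M UMIs in 17 of 18 profiles (median 0.20), and *Dnmt3a* was lower in 12 of 16 (median -0.44). The medians of the Tet genes lay between -0.15 and 0.01 in both splits.

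**Figure D3:**
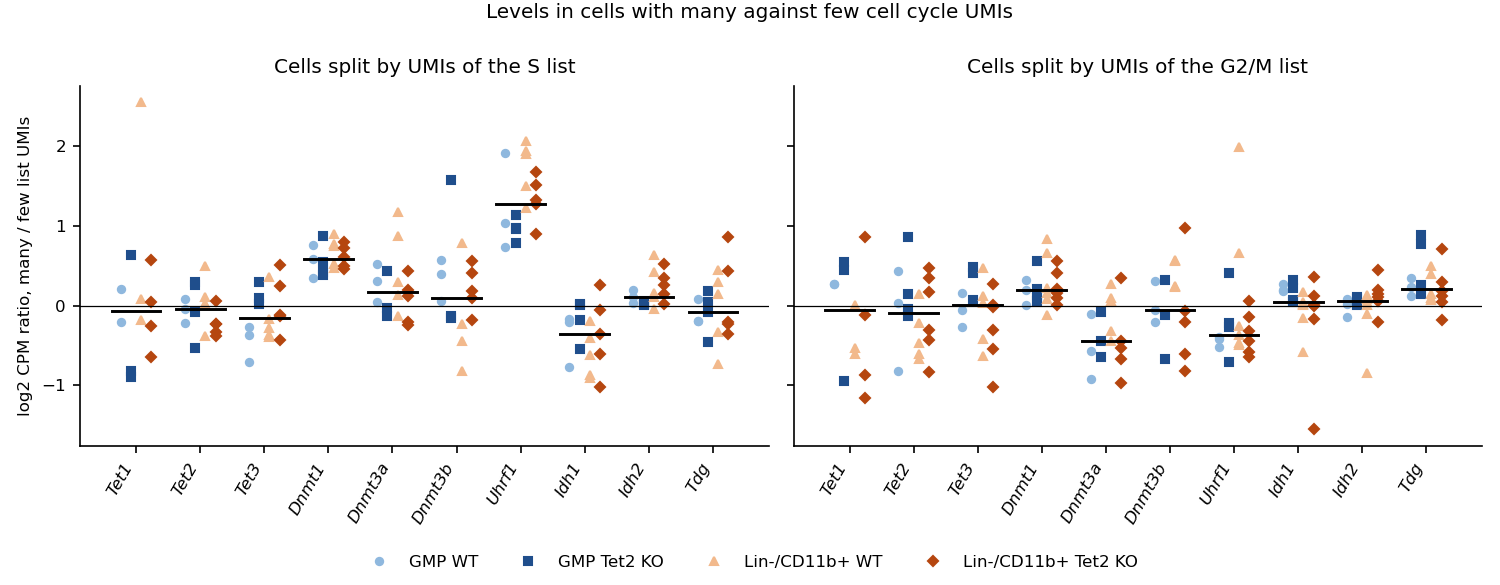
log2 ratio of each gene's CPM in cells with many over cells with few UMIs of the S list (left, divided at 6 UMIs) and of the G2/M list (right, divided at 4 UMIs), each point a class in a library and each black line the median. All 17 points of *Uhrf1* and of *Dnmt1* lie above 0 on the left, and 15 of 19 points of *Uhrf1* lie below 0 on the right.

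Between genotypes, *Dnmt1* was higher in KO in HSPC-like cells of the Lin-/CD11b+ fraction (78.5 [67.9 to 90.3] against 117 [107 to 127] CPM, log2 ratio 0.57 [0.33 to 0.81]) and in pDC lineage-like cells (84.5 [72.8 to 97.6] against 116 [103 to 129.98] CPM, 0.45 [0.18 to 0.73]), both under 1.5-fold. For comparison, the S phase genes summed to 1289 and 1235 CPM in WT and KO HSPC-like cells, and *Uhrf1* stood at 71.3 and 70.4 CPM there. In pDC lineage-like cells they summed to 1722 and 1747 CPM, and *Uhrf1* stood at 91.8 and 100.1 CPM. Their part in the *Dnmt1* values was not tested. The share of HSPC-like cells with a *Dnmt1* UMI at equal depth was 25.4% (19.6 to 31.9) [unthinned 52.7%] in WT and 41.6% (37.02 to 46.2) [unthinned 58.9%] in KO. In the GMP fraction the *Dnmt1* ratios of HSPC-like, mono-GMP-like and neutro-GMP-like cells were 0.08, -0.02 and 0.05, with intervals that all included 0 and, in mono-GMP-like cells, ran from -0.14 to 0.10. In basophil-like cells of the GMP fraction *Dnmt1* stood at 58.8 CPM in WT and 80.7 CPM in KO, a log2 ratio of 0.46 (0.0052 to 0.92), and in neutro-GMP-like cells of the Lin-/CD11b+ fraction the ratio was 0.29 (0.04 to 0.55).

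Neutrophil-like cells of the Lin-/CD11b+ fraction held 5 of the 13 comparisons past 1.5-fold higher: *Tet2*, *Dnmt1* (33.8 [24.9 to 44.8] against 52.4 [42.3 to 64.2] CPM), *Uhrf1* (19.7 [13.1 to 28.5] against 37.2 [28.7 to 47.3] CPM), *Idh1* (18.3 [11.9 to 26.8] against 38.3 [29.7 to 48.6] CPM) and *Idh2* (15.5 [9.70 to 23.4] against 23.7 [17.05 to 31.98] CPM). This class stood apart over all genes: 33.8% of 6561 genes were past 1.5-fold higher in KO, and the median log2 ratio of all of them was 0.37, against 0.63 for the 7 of the 10 genes that had enough UMIs. Abundant neutrophil genes took less of the RNA in KO. *S100a8* stood at 202785 CPM in WT and 162662 CPM in KO, *Camp* at 64187 and 41670 CPM, and the immature granule gene *Elane* at 487 and 997 CPM. With TMM scaling, which sets aside such dominant genes, only *Idh1* stayed past 1.5-fold in this class, with a log2 ratio of 0.71, while *Tet2* (0.39), *Dnmt1* (0.28), *Uhrf1* (0.56) and *Idh2* (0.26) did not.

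*Idh1* and *Idh2*, the cytosolic and mitochondrial sources of 2-oxoglutarate, differed in opposite directions between HSPC-like and monocyte-like cells. In Lin-/CD11b+ WT *Idh1* stood at 88.9 (79.9 to 98.6) CPM in monocyte-like, 69.97 (62.8 to 77.7) CPM in mono-GMP-like, 31.2 (24.7 to 38.99) CPM in HSPC-like and 22.3 (16.5 to 29.4) CPM in pDC lineage-like cells, and these 4 classes kept that order in Lin-/CD11b+ *Tet2* KO with overlapping intervals in the last pair (21.4 [17.4 to 26.1] and 17.7 [12.9 to 23.8] CPM). Neutrophil-like cells were low, as given above. *Idh2* ran the other way, from 226 (208 to 245) CPM in HSPC-like through 202 (189 to 215) CPM in mono-GMP-like to 110.2 (100.1 to 121) CPM in monocyte-like and 15.5 (9.70 to 23.4) CPM in neutrophil-like cells of Lin-/CD11b+ WT. In Lin-/CD11b+ *Tet2* KO it stood at 190.3 (178 to 203) CPM in HSPC-like, 199.8 (189 to 211) CPM in mono-GMP-like and 109 (102 to 117) CPM in monocyte-like cells, so that HSPC-like and mono-GMP-like cells overlapped there. The share of cells with a UMI at equal depth differed the same ways in Lin-/CD11b+ WT, with *Idh1* in 36.1% of monocyte-like and 11.2% of HSPC-like cells and *Idh2* in 38.8% and 61.95%.

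Between genotypes *Idh1* went opposite ways in HSPC-like cells of the 2 fractions. In the GMP fraction, 150 UMIs in 151 WT cells gave 53.7 (45.5 to 63.1) CPM and 201 UMIs in 185 KO cells gave 70.1 (60.8 to 80.5) CPM. In the Lin-/CD11b+ fraction, 78 UMIs in 205 WT cells gave 31.2 (24.7 to 38.99) CPM and 98 UMIs in 462 KO cells gave 21.4 (17.4 to 26.1) CPM. The log2 ratios were 0.38 (0.07 to 0.70) and -0.54 (-0.99 to -0.09). With classes taken from clusters they were 0.18 and -0.075, so the size of the Lin-/CD11b+ difference depends on which cells are counted as HSPC-like. The *Elane* values of the HSPC-like cells, given above, were likewise higher in KO in the GMP fraction and lower in KO in the Lin-/CD11b+ fraction. Their part was not tested. In mono-GMP-like cells the *Idh1* ratio was 0.10 (-0.03 to 0.23) in the GMP fraction and -0.35 (-0.57 to -0.14) in the Lin-/CD11b+ fraction. *Idh2* was within 1.5-fold in 11 of 12 comparisons, the exception being neutrophil-like cells, and was slightly lower in KO over the GMP fraction (245 [239 to 252] against 228 [224 to 233] CPM). Over the Lin-/CD11b+ fraction its log2 ratio was -0.073 (-0.137 to -0.009). In HSPC-like cells it was -0.18 (-0.33 to -0.03) in the GMP and -0.25 (-0.40 to -0.09) in the Lin-/CD11b+ fraction. Of the 12 *Idh2* ratios, 8 were below and 4 above 0.

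*Tdg* was even across HSPC-like and GMP-like cells, at 28.4, 27.5 and 35.05 CPM in HSPC-like, mono-GMP-like and neutro-GMP-like cells of Lin-/CD11b+ WT, with intervals that overlapped, and was lowest in plasma-like cells at 3.53 (1.42 to 7.27) CPM. Its only comparison past 1.5-fold was basophil-like cells of the GMP fraction, at 44.1 (32.8 to 57.97) CPM in WT and 24.4 (16.7 to 34.4) CPM in KO, where 10.4% of genes were past 1.5-fold lower. In basophil-like cells of the Lin-/CD11b+ fraction the levels were 22.4 and 22.02 CPM. *Tdg* has a processed pseudogene on chromosome 15 with no row in the matrix, and the handling of reads that match both copies is not stated.

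Over all 12 class comparisons, 104 pairs of gene and class had at least 20 UMIs. Of these, 13 were 1.5-fold or more higher in KO and 1 was lower. In all genes tested the shares were 9.77% higher and 6.2% lower. The higher pairs among the 10 genes were thus near the background in number. *Tet2* made up 5 of the 13. Over whole libraries none of the 10 genes was past 1.5-fold in the GMP fraction, where 3.12% of genes were past it higher and 6.75% lower, and in the Lin-/CD11b+ fraction *Tet2* alone was (8.38% higher and 4.35% lower). In the GMP fraction 2 pairs were past 1.5-fold, both in basophil-like cells, and none in HSPC-like or GMP-like cells, where 4.28%, 4.05% and 4.2% of genes were past it higher and 9.72%, 5.33% and 5.7% lower in HSPC-like, mono-GMP-like and neutro-GMP-like cells. In mono-GMP-like cells of the Lin-/CD11b+ fraction, 3 of the 10 genes were past it (*Tet1*, *Tet2* and *Dnmt3b*), and the median log2 ratio of the 10 genes was 0.36, against 0.05 over all genes tested. These cells also differed in markers of their class: *Irf8* stood at 556 CPM in WT and 381 CPM in KO, and *Ly86* at 297 and 180 CPM. The part of this in the ratios was not tested. None of the 10 genes was past 1.5-fold in pDC lineage-like cells (7.42% of genes higher and 6.84% lower) or, of the 3 with enough UMIs, in plasma-like cells (18.7% and 7.24%). None was past it on the lower side in the other classes of that fraction, against 4.44% of genes in HSPC-like, 4.16% in mono-GMP-like, 4.23% in neutro-GMP-like, 5.22% in monocyte-like, 4.25% in neutrophil-like and 10.8% in basophil-like cells.

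**Figure D4:**
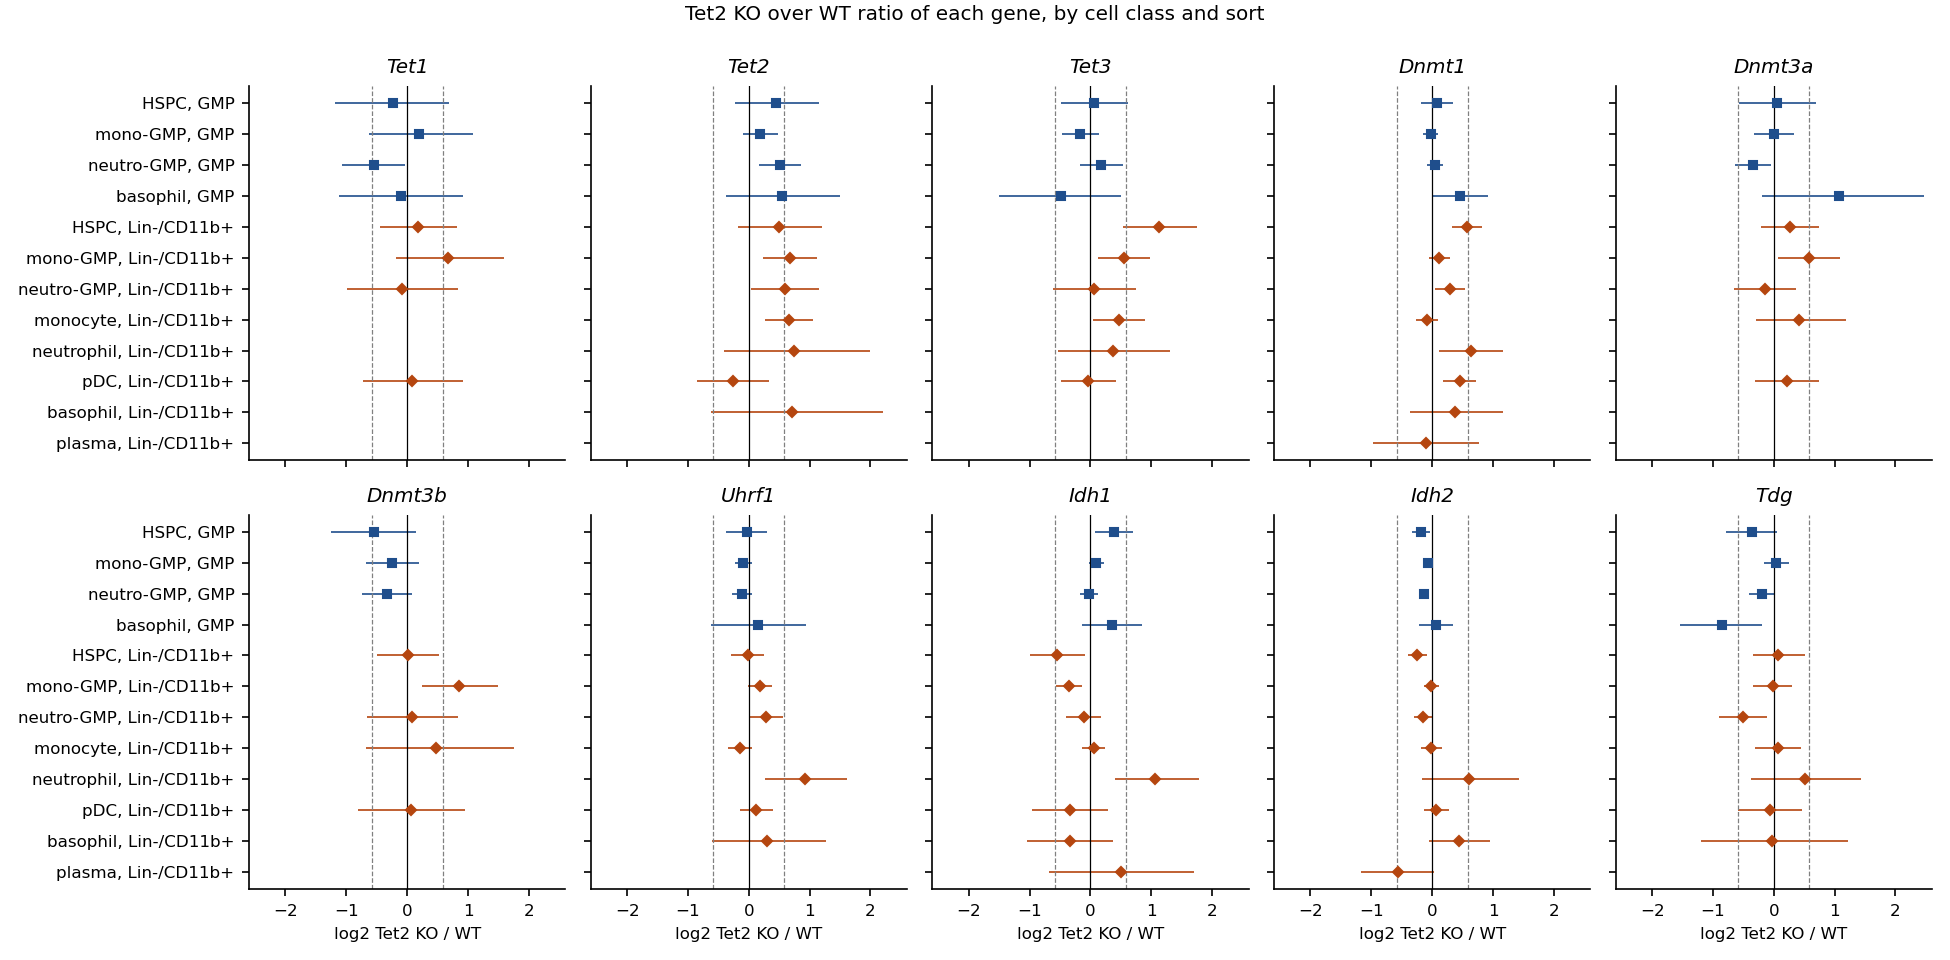
log2 ratio of *Tet2* KO over WT for each gene (panels) in each class and sort (rows), with exact 95% counting intervals. Squares are the GMP fraction, diamonds the Lin-/CD11b+ fraction, dashed lines mark 1.5-fold, and comparisons with under 20 UMIs have no point. *Tet2* lies right of 0 in 10 of 11 comparisons, and *Idh1* lies on opposite sides of 0 in HSPC-like cells of the 2 fractions.

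Other genes of the pathway came from a fixed list of 54 genes in 6 groups, of which 51 have a row in the matrix. Counting every class comparison with at least 20 UMIs, the pairs past 1.5-fold were 4 higher and 3 lower of 36 for TET recruiters and partners, 7 higher and 2 lower of 72 for maintenance partners, 5 higher and 2 lower of 41 for genes of de novo methylation and its control, 5 higher and 6 lower of 75 for methyl-CpG readers, 11 higher and 11 lower of 122 for base excision repair, and 11 higher and 8 lower of 145 for methyl donor and 2-oxoglutarate metabolism. These shares lie around the 9.77% and 6.2% of all genes. The genes past 1.5-fold the same way in a class of both fractions were *Gadd45g*, *Ahcy* and *Ung*. The share of all genes that were so in both fractions was not counted.

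*Gadd45g*, a stress-induced gene linked to repair-based demethylation, was lower in KO in neutro-GMP-like cells of the GMP fraction (15.7 against 6.08 CPM, log2 ratio -1.37 [-1.76 to -0.998]) and of the Lin-/CD11b+ fraction (13.04 against 6.48 CPM, -1.01 [-1.75 to -0.29]). In mono-GMP-like cells it stood at 4.63 and 2.82 CPM in the GMP fraction and 7.64 and 4.31 CPM in the Lin-/CD11b+ fraction. *Ahcy*, which clears S-adenosylhomocysteine, the product and inhibitor of methyl transfer, was lower in KO in neutro-GMP-like cells of the GMP fraction (28.7 against 12.7 CPM, -1.17 [-1.44 to -0.91]) and of the Lin-/CD11b+ fraction (17.7 against 10.6 CPM, -0.74 [-1.34 to -0.16]). Of all genes tested, 5.7% and 4.23% were past 1.5-fold lower in neutro-GMP-like cells of the GMP and Lin-/CD11b+ fractions. In mono-GMP-like cells the shares were 5.33% and 4.16%. The neutro-GMP-like cells also differed in *S100a8*, as given above, and its part in these values was not tested. *Ung*, a uracil glycosylase, was higher in KO in basophil-like cells of both fractions, with log2 ratios of 0.70 (-0.02 to 1.45) and 0.98 (-0.04 to 2.11), both intervals including 0. There 7.45% and 13.2% of genes were past 1.5-fold higher.

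Of the largest ratios per group, several lay in small classes. Among maintenance partners, *Hells*, a remodeller needed for methylation, stood at 36.3 CPM in WT and 69.3 CPM in KO basophil-like cells of the GMP fraction, *Lig1*, the ligase of replication, at 69.2 and 133 CPM in basophil-like cells of the Lin-/CD11b+ fraction, and *Usp7* at 5.54 and 15.4 CPM in plasma-like cells. The S phase genes in basophil-like cells summed to 1017 and 1134 CPM in WT and KO of the GMP fraction, and to 698 and 1144 CPM in the Lin-/CD11b+ fraction. *Parp1* stood at 2.11 CPM (3 UMIs) in WT and 20.8 CPM (37 UMIs) in KO neutrophil-like cells (log2 ratio 3.30 [1.65 to 5.65]), the class with the shift over all genes, and *Mbd2*, a methyl-CpG reader, at 5.54 and 12.8 CPM in plasma-like cells. *Ebf1*, a B lineage factor that can recruit TET2, had 3 UMIs in 354 WT and 26 UMIs in 492 KO mono-GMP-like cells of the Lin-/CD11b+ fraction (log2 ratio 2.63 [0.92 to 4.998]) and 3 UMIs in 205 WT and 30 UMIs in 462 KO HSPC-like cells.

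Lastly, the genes whose levels were most like each member over the 26 profiles were found among 7386 genes with at least 20 UMIs in at least 13 profiles. *Tet1* had too few UMIs to be compared. *Dnmt1* was most like *Wdhd1*, *Snrpb* and *Atad5* (r = 0.98 to 0.97), of which *Wdhd1* and *Atad5* act at the replication fork, and *Uhrf1* was most like *Rrm1*, *Srsf2* and *Anp32b* (r = 0.98 to 0.97), of which *Rrm1* makes deoxynucleotides. *Idh2* was most like *Trap1*, *Pa2g4* and *Fkbp4* (r = 0.99 to 0.98), of which *Trap1* is a mitochondrial chaperone, and *Tdg* was most like *Wdr5*, *Zfp35* and *Pts* (r = 0.96 to 0.95). For *Tet2* they were *Sra1*, *Ccdc50* and *Cwc15* (r = 0.91 to 0.89), for *Tet3* *Zmiz1*, *Kdm5a* and *Purb* (r = 0.92 to 0.90), for *Dnmt3b* *Mettl16*, *Ddx56* and *Nmnat3* (r = 0.92 to 0.92), and for *Idh1* *Mapkapk3*, *H2afj* and *Hnrnpll* (r = 0.93 to 0.90). *Tet2* and *Tet3* correlated with each other at r = 0.73. All r are over profiles that share libraries and depth, with the low plasma-like and neutrophil-like profiles far from the rest.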

How the data were processed

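Single-cell 3′ RNA libraries of 4 samples, 1 per genotype and sort, were analysed. The authors deposited raw UMI counts per gene and cell with a table of the library of each cell, and the submitters' processing notes name Cell Ranger 3.1.0, Seurat and mm10. The kit version differs between the sources and strand use in counting is not stated. Cells were classed by the number of fixed markers detected after thinning to 5000 UMIs. The marker minimums were set after marker levels were seen. The authors' methods keep cells with at least 5000 UMIs and under 5% mitochondrial reads, yet 44 to 180 deposited cells per library had 5% or more. No doublet caller was run and no cell was removed. Counts of a class were summed per library and divided by their total (CPM). With 1 library per genotype and sort no test across animals was possible, so no p-value is given. CPM carry exact Poisson, shares exact Clopper-Pearson and ratios exact conditional binomial 95% intervals (SciPy 1.17.1), for counting error only, and the ratio code was tested on simulated data. Ratios needed at least 20 UMIs over both genotypes and classes at least 50 cells. Total counts were 22681380 to 42561110 UMIs per library. All 10 genes are named. Of the other pathway genes, those past 1.5-fold the same way in both sorts and up to 3 per group with the largest ratios are named, and for likeness the 3 most correlated genes, except for *Dnmt3a*, whose likeness result is not reported here. Alternatives were TMM scaling (edgeR 4.0.16, factors only), per-cell means, fewer cells, Leiden clusters (leidenalg 0.10.2, 30 components, 30 neighbours, resolution 0.8, named where at least 40% of cells shared a class), cell cycle subsets, thinning, no filter and 2-fold. Promoters came from RefSeq (GRCm38.p6). The genes, lists and tests were chosen with earlier results of these data known.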

Additional observations from a re-analysis of the deposited data

Results flagged for a closer look

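*Idh1* in HSPC-like cells was singled out because its KO over WT log2 ratio was 0.38 in the GMP fraction and -0.54 in the Lin-/CD11b+ fraction, so that the libraries of the 2 fractions went opposite ways. With classes taken from clusters the ratios were 0.18 and -0.075. The HSPC-like cells of the 2 fractions also differed in maturity genes, as given above. Each ratio rests on 1 library per genotype, and the difference between the fractions was not tested.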

How the results depend on the processing

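No paired analysis was possible because each genotype and sort had 1 library, and for the same reason no replicate could be left out. Of the 104 ratios, 72 changed sign under at least 1 alternative, the other fraction and the whole library included. Of the 14 ratios past 1.5-fold, 5 did, in 6 values, while 67 of the 90 ratios within 1.5-fold did. Leaving out those 6 values, 1098 values lay within the counting interval of the reported ratio and 81 outside it. The count of gene and class pairs past 1.5-fold higher was 13 of 104 and fell between 11 and 19 except with TMM scaling (8), with whole libraries (1 of 20) and with a 2-fold limit (3). The count lower was 1 and became 2 with TMM scaling, without cells at 5% or more mitochondrial counts, without the 5% of cells with most UMIs, and with 1 marker more per class. It became 4 with per-cell means, 4 with no filter, 4 in cells with many and 6 in cells with few cycle UMIs, 7 with thinned cells, 3 with 1 marker fewer per class, and 0 with clusters, whole libraries or a 2-fold limit. The marker minimums raised or lowered by 1 were alternatives chosen after seeing the data, and the mono-GMP-like and neutro-GMP-like classes had no minimum of their own. The median ratios of the 10 genes were -0.02 in the GMP fraction and 0.12 in the Lin-/CD11b+ fraction. Under every alternative they moved by less than the typical counting error of single ratios in their fraction. That error is the median distance from the middle to the end of a ratio's counting interval, and not a spread among genes. It is a wide limit for a median, which the median of the other fraction also met. The GMP median was above 0 with TMM scaling (0.024) and in cells with few cycle UMIs (0.0096). The ratios past 1.5-fold that changed sign were *Dnmt3a* in GMP-fraction basophil-like cells (-0.14 in the whole library), *Tet1* (-0.025 with 1 marker fewer) and *Dnmt3b* (-0.11 with clusters, -0.24 in the other fraction) in mono-GMP-like cells, *Tet2* in neutro-GMP-like cells (-0.033 in cells with few cycle UMIs), and *Idh2* in neutrophil-like cells (-0.073 in the whole library). The cause was not tested.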

Other observations

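Cells of the Lin-/CD11b+ fraction that met the minimums of several classes, HSPC-like and monocyte-like not counted, numbered 65 in WT and 105 in *Tet2* KO. They had *Tet2* at 8.59 (3.46 to 17.7) and 18.3 (11.5 to 27.7) CPM, *Tet3* at 13.5 (6.74 to 24.2) and 20.8 (13.5 to 30.7) CPM, and *Dnmt1* at 44.2 (31.0 to 61.2) and 44.1 (33.0 to 57.7) CPM. *Dnmt3a* stood at 4.91 (1.34 to 12.6) CPM in WT and 14.97 (8.87 to 23.7) CPM in KO. The 71 other KO cells of that fraction without a class had *Tet3* at 33.2 (21.9 to 48.4) CPM and *Dnmt3a* at 25.8 (15.9998 to 39.5) CPM. These can include cells that met both the HSPC-like and the monocyte-like minimum.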
